A study of Homo sapiens with 8 samples.

Results

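The genes described here encode the enzymes that place methyl groups on histone lysines, called writers, and those that remove them, called erasers. They were chosen by name, as protein-coding genes outside the Y chromosome with KDM, KMT or SETD symbols, together with NSD1 to NSD3, SUV39H1, SUV39H2, EHMT1, EHMT2, SETDB1, SETDB2 and DOT1L. The naming rule uses no measured value, though it was set with earlier results of these data known. Of 58735 genes listed in the count files, 46 matched: 21 writers, 19 erasers and 6 SET-domain proteins with no settled histone lysine substrate (KMT2E, SETD3, SETD4, SETD5, SETD6 and SETD9). A filter on low counts left 16452 genes for testing, among them 44 of these 46. The erasers KDM4E and KDM4F were the ones that did not pass.

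All 8 libraries were made from total RNA of 22Rv1, a human castration-resistant prostate cancer cell line. The inhibitor group (4 libraries) received PCC0208017, described by the submitters as a MARK3 inhibitor, and the control group (4 libraries) received the vehicle DMSO. The sources used here give neither dose nor time of treatment. They also do not say whether replicates came from separate cultures. Each p-value sets the difference between groups against the spread among these libraries, moderated across genes. That spread may be only technical. MARK3 activity was not measured, and actions of the compound on MARK3 and on other targets cannot be told apart. Library totals ranged from 13517289 to 21271127 counts in inhibitor libraries and from 12672817 to 13386143 in control libraries. All 10 luminal prostate markers examined, KRT8, KRT18 and HOXB13 among them, were present at 1 CPM (reads of a gene relative to the library total, TMM-adjusted unless stated) or more. Their summed level, without TMM adjustment, was 2886 to 3042 CPM in inhibitor libraries and 3548 to 3607 CPM in control libraries. Basal, endothelial and immune marker lists summed to at most 2.73 CPM in any library, with PECAM1, CDH5 and CD3E at 0 in all. Stromal markers summed to 16.7 to 25.0 CPM in inhibitor and 14.1 to 19.4 CPM in control libraries, and neuroendocrine markers to 111 to 124 CPM in inhibitor and 100 to 113 CPM in control libraries. The part of these shifts in the results below was not tested.

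Histone lysine methylation marks chromatin states. Methyl groups on H3K4 and H3K36 are found at active genes, those on H3K9 and H3K27 at silenced chromatin, H3K79 methylation along transcribed genes, and H4K20 methylation in cell cycle and heterochromatin functions. Most writers carry a catalytic SET domain, of which DOT1L is the exception, and use S-adenosylmethionine as methyl donor. Erasers are either flavin-dependent amine oxidases (KDM1A and KDM1B) or JmjC-domain dioxygenases, which need iron, oxygen and 2-oxoglutarate.

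Among erasers more members were higher than lower in inhibitor-treated cells, and among writers more were lower than higher. A gene was called when its adjusted p was under 0.05 (edgeR's quasi-likelihood test, Benjamini-Hochberg over all 16452 genes). Of the 17 erasers tested, 9 were higher, 2 were lower and 6 were not called. Of the 21 writers, 3 were higher, 7 were lower and 11 were not called. Across all tested genes 29.8% were called higher and 28.3% lower, 58.1% in either direction, which is the background for these counts. The 7 of 21 writers called lower are near that background. With total counts in place of TMM scaling the split over all genes was 6268 higher and 3604 lower, against 4899 and 4652 with TMM, and that of the members 16 and 6, against 13 and 11. The median log2 fold change (inhibitor minus control) was 0.38 in erasers, −0.14 in writers and 0.02 over all tested genes. The 6 other SET-domain members had 1 higher, 2 lower and 3 not called. These counts and medians describe the lists, and no test was run over their members, which are not replicates. In bulk RNA, fewer cells expressing a gene and less RNA per cell cannot be told apart.

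**Figure D1:**
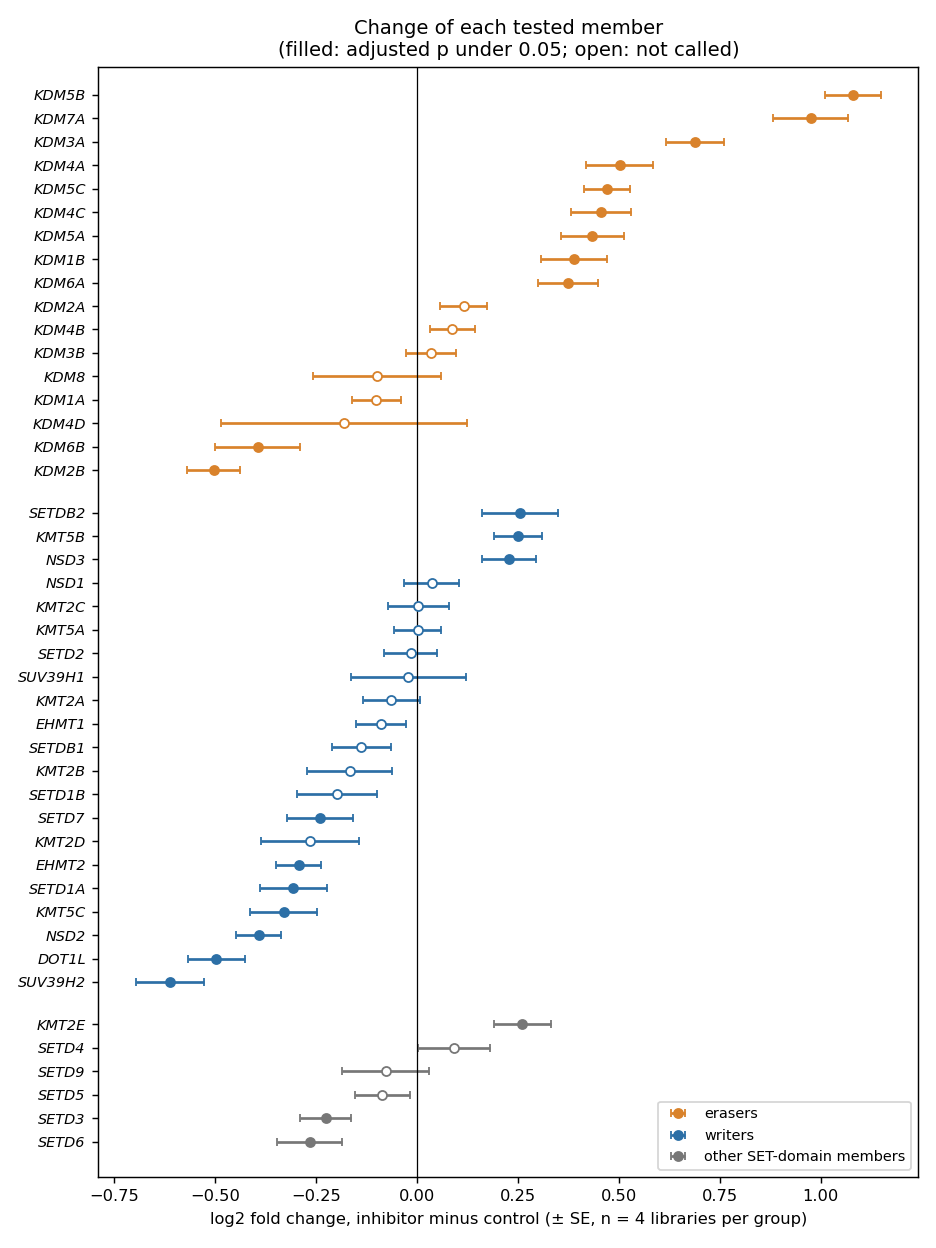
The log2 fold change of each tested member, inhibitor minus control, is plotted with its standard error (n = 4 libraries per group), with erasers on top, then writers, then the other SET-domain members. Filled symbols passed an adjusted p under 0.05. Erasers extend to 1.08 (KDM5B), whereas no writer lies above 0.26.

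Promoter sequences are shown for 5 members. They let the letters before the start be read beside the changes below. KDM5B, KDM7A, KDM4A and SUV39H2 are the called members that moved by 0.5 or more (log2) and have a single RefSeq promoter window, and NSD2, which was lower, was added after its motif matches were seen. They are the bases before the RefSeq start (GRCh38.p14), 250 at most and without bases inside the GENCODE gene, written 5′ to 3′ on the gene's strand. Capitals mark matches on either strand to the GC box (GGGCGG), the CCAAT box (CCAAT), the CHR element of cell cycle genes (TTTGAA or TTCGAA), the E-box (CACGTG) and E2F-type sites (TTTCCCGC, TTTCGCGC, TTTGCCGC or TTTGGCGC). Adjacent GC boxes can overlap.
KDM5B (chr1:202808488-202808671, minus strand): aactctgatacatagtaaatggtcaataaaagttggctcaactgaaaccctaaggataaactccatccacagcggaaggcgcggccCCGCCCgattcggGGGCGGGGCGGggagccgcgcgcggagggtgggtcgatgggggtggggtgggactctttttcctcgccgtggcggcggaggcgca
KDM7A (chr7:140176984-140177233, minus strand): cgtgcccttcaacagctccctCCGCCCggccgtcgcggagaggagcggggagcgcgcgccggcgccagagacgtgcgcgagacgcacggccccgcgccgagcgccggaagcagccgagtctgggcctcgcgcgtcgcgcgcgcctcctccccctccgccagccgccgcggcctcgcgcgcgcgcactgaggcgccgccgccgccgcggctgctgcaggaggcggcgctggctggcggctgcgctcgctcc
KDM4A (chr1:43649899-43650148, plus strand): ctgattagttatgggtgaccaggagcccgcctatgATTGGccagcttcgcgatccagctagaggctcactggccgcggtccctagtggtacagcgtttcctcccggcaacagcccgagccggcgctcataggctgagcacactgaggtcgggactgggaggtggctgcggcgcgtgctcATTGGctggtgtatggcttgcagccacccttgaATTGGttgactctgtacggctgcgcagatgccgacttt
SUV39H2 (chr10:14878616-14878819, plus strand): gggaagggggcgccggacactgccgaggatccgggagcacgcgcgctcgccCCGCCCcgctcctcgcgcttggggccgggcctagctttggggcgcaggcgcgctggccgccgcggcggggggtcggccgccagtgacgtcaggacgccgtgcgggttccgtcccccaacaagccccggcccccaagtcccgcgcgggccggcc
NSD2 (chr4:1871143-1871392, plus strand): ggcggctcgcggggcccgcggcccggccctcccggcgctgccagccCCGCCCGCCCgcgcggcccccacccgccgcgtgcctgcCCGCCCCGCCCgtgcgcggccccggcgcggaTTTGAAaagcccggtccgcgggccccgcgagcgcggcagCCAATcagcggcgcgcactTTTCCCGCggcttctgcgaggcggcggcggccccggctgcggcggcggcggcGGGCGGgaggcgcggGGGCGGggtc

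The NSD2 window held an E2F-type match 77 to 70 bases before the RefSeq start, a CCAAT box 96 to 92 bases before it and a CHR match 135 to 130 bases before it. KDM4A had 3 CCAAT boxes and no GC box, KDM5B had 3 GC boxes, and KDM7A and SUV39H2 had 1 GC box each in the printed stretch. RefSeq listed 60 windows of 250 bases for 42 of the members. A GC box was found in 76.7% of these windows, against 42.6% of all 35116 RefSeq windows, a CCAAT box in 33.3% against 32.0%, an E-box in 15% against 6.34%, an E2F-type match in 3.33% against 2.79% and a CHR match in 3.33% against 14.3%. Besides NSD2, the E2F-type match was found in KDM1B, which was higher in treated cells. Members with several windows, such as NSD1 with 5, count more than once in these percentages. The RefSeq windows were not matched to those of the members for GC content or expression. A match is a description of the letters and not a binding site.

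Among erasers of H3K4 methylation, 4 of 5 were higher and 0 were lower, against 29.8% higher and 28.3% lower of all tested genes. KDM5B (ENSG00000117139; chromosome 1, 202724495 to 202808487, hg38, minus strand), a JmjC demethylase of di- and trimethylated H3K4, had 79.9, 73.1, 75.3 and 71.9 CPM in inhibitor libraries, against 38.1, 36.3, 35.1 and 32.5 CPM in control libraries. Every inhibitor library lay far above every control. Its log2 fold change was 1.08 ± 0.07 (SE, n = 4 per group; adjusted p = 1.78e-12), or 2.11-fold, the largest of all members. KDM5C, its X-linked paralog, had 224, 236, 249 and 234 CPM in inhibitor libraries and 168, 159, 177 and 177 CPM in control libraries. The groups did not overlap, and the change was 0.47 ± 0.06 (adjusted p = 1.15e-07). KDM5A, the paralog first described as a partner of the retinoblastoma protein, had 126, 98.3, 113 and 94.4 CPM in inhibitor libraries and 80.8, 85.2, 73.9 and 79.1 CPM in control libraries. Its inhibitor libraries were spread more widely than its controls but lay above them (0.43 ± 0.08, adjusted p = 4.36e-05).

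The flavin-dependent erasers of H3K4 differed from each other. KDM1B averaged 44.9 ± 3.09 CPM in inhibitor libraries and 34.2 ± 3.85 CPM in control libraries (SD, n = 4 each), a change of 0.39 ± 0.08 (adjusted p = 0.00024). KDM1A, also known as LSD1 and by far the more abundant of the pair, had 90.4, 96.8, 88.8 and 85.9 CPM in inhibitor libraries against 96.7, 94.6, 97.8 and 99.2 CPM in control libraries. Its libraries overlapped and it was not called (−0.10 ± 0.06, adjusted p = 0.155). With GC offsets, which take out the dependence of each library on the GC content of transcripts, it was called lower (−0.15, adjusted p = 0.0152).

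Among the erasers of H3K9 methylation taken by the name rule, 4 of the 7 tested were higher and 0 were lower. KDM1A, which was not called, was counted with the H3K4 erasers alone, here and in the scores per mark. Of all tested genes 29.8% were higher and 28.3% lower. PHF8, an H3K9 demethylase outside that rule, was lower (−0.37 ± 0.07, adjusted p = 9.02e-05). KDM7A (ENSG00000006459; chromosome 7, 140084746 to 140176983, minus strand), a JmjC demethylase of H3K9 and H3K27, had 60.1, 48.0, 67.1 and 51.5 CPM in inhibitor libraries and 31.9, 29.1, 27.2 and 26.8 CPM in control libraries. The inhibitor libraries varied among themselves by a coefficient of variation of 15.2%, yet all lay above the controls. The change was 0.97 ± 0.09 (adjusted p = 5.21e-09). KDM3A (ENSG00000115548; chromosome 2, 86440647 to 86492716, plus strand), which acts on mono- and dimethylated H3K9, had 75.7, 67.2, 69.3 and 65.3 CPM in inhibitor libraries, against 45.3, 46.1, 39.5 and 41.1 CPM in control libraries. It rose by 0.69 ± 0.07 (adjusted p = 1.13e-08) with no overlap. Its paralog KDM3B averaged 88.1 ± 2.50 CPM in inhibitor libraries and 86.0 ± 4.39 CPM in control libraries and was not called (0.04 ± 0.06, adjusted p = 0.638), although it was with total counts (0.14, adjusted p = 0.0495).

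The KDM4 genes encode erasers of trimethylated H3K9 and, for KDM4A to KDM4C, of H3K36. KDM4A (ENSG00000066135; chromosome 1, 43650149 to 43705518, plus strand) had 39.3, 41.1, 34.2 and 37.9 CPM in inhibitor libraries and 23.5, 29.2, 26.8 and 28.2 CPM in control libraries. The groups were separate, with a change of 0.50 ± 0.08 (adjusted p = 1.28e-05). The antisense gene KDM4A-AS1 shares 9.12% of KDM4A exon bases, and an unnamed same-strand gene with 0 counts shares 40.2%. The sources used here do not say if reads were counted by strand. KDM4C averaged 45.6 ± 1.92 CPM in inhibitor libraries and 33.2 ± 2.59 CPM in control libraries (0.46 ± 0.07, adjusted p = 1.13e-05). KDM4B had 108, 114, 108 and 109 CPM in inhibitor libraries and 102, 104, 105 and 102 CPM in control libraries. All inhibitor values were above the controls but by a small margin, and the gene was not called (0.09 ± 0.06, adjusted p = 0.185), although it was with total counts (0.19) and with GC offsets (0.23). KDM4D stood at only 1.22 ± 0.18 CPM in inhibitor libraries and 1.36 ± 0.64 CPM in control libraries and was not called (−0.18 ± 0.31). KDM4F had 0 counts in every library, and KDM4E had 2 counts in inhibitor replicate 2 and 0 in the other 7 libraries. With 0 counts, levels of up to 0.237 CPM in the shallowest library (3 counts of the total, counting error only) would be missed.

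The H3K27 and H3K36 erasers moved in both directions. KDM6A, an X-linked H3K27 demethylase found in complexes with KMT2C and KMT2D, had 36.6, 36.1, 36.9 and 36.1 CPM in inhibitor libraries and 27.4, 30.6, 27.2 and 27.2 CPM in control libraries. The inhibitor libraries were nearly equal and all higher (0.38 ± 0.07, adjusted p = 0.000113). KDM6B, the stimulus-inducible H3K27 demethylase, had 93.0, 147, 138 and 126 CPM in inhibitor libraries, against 159, 165, 175 and 164 CPM in control libraries. It was lower in every inhibitor library and lowest in replicate 1 (−0.39 ± 0.11, adjusted p = 0.00576), a call that ended with total counts (−0.29, adjusted p = 0.0598) and held without inhibitor replicate 1 (−0.29, adjusted p = 0.000248). KDM2B (ENSG00000089094; chromosome 12, 121429096 to 121581023, minus strand), an H3K36 demethylase whose CXXC domain recruits a variant Polycomb complex to CpG islands, had 38.5, 39.9, 38.8 and 40.5 CPM in inhibitor libraries, against 55.5, 56.3, 55.5 and 56.2 CPM in control libraries. It was the eraser with the tightest replicates in controls, and it fell by 0.50 on the log2 scale (SE 0.06, adjusted p = 3.76e-07). The opposite-strand gene RNF34 shares 3.22% of its exon bases. Its paralog KDM2A averaged 101 ± 4.21 CPM in inhibitor libraries and 93.3 ± 2.81 CPM in control libraries and was not called (0.12 ± 0.06, adjusted p = 0.0961). KDM2A was called higher with total counts (0.22) and upper-quartile scaling (0.15). KDM8, a JmjC protein whose activity on H3K36 is debated, was at 3.75 ± 0.28 CPM in inhibitor libraries and 4.04 ± 0.12 CPM in control libraries and was not called.

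**Figure D2:**
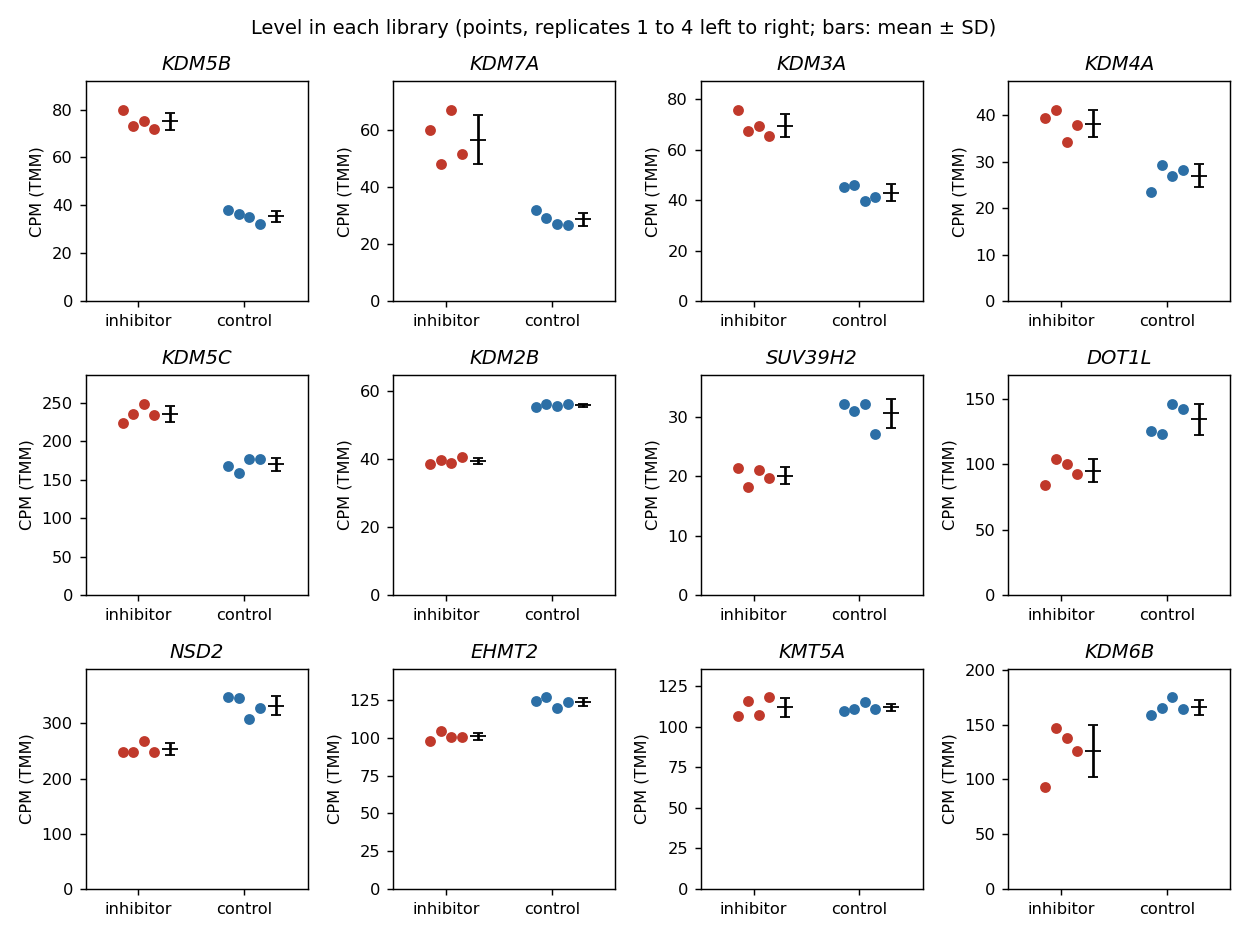
The level of 12 members in each library is plotted in TMM-scaled CPM, inhibitor on the left and control on the right of each panel, with points for replicates 1 to 4 and bars for the mean and SD. KDM5B, KDM7A, KDM3A, KDM4A and KDM5C lie higher in all inhibitor libraries, KDM2B, SUV39H2, DOT1L, NSD2, EHMT2 and KDM6B lie lower, and KMT5A overlaps.

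Among the 7 writers of H3K4 methylation 0 were higher and 2 were lower. The count lower is near the 28.3% of all tested genes called lower, and 29.8% of all tested genes were higher. SETD1A, a catalytic subunit of the COMPASS complexes that trimethylate H3K4, had 43.5, 61.3, 52.3 and 53.7 CPM in inhibitor libraries and 61.5, 64.2, 71.2 and 64.7 CPM in control libraries. The groups nearly touched (−0.31 ± 0.08, adjusted p = 0.00277), and the call ended with total counts (−0.20, adjusted p = 0.0582). With GC offsets the SETD1A change was −0.14 (adjusted p = 0.0439). SETD7, which monomethylates H3K4 and several non-histone proteins, had 129, 104, 134 and 104 CPM in inhibitor libraries, against 143, 154, 127 and 130 CPM in control libraries. Its libraries overlapped (−0.24 ± 0.08, adjusted p = 0.0156), and it was no longer called without control replicate 2 (adjusted p = 0.0663), without inhibitor replicate 4 (0.0631) or with total counts (0.169).

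The large KMT2 and SETD1 genes had wide spreads in treated cells. KMT2D, a writer of enhancer H3K4 monomethylation, had 113, 147, 175 and 117 CPM in inhibitor libraries and 174, 165, 166 and 156 CPM in control libraries, so that inhibitor replicate 3 lay above the highest control and the others below the lowest. It was not called (−0.26 ± 0.12, adjusted p = 0.0855), and was called lower without that library (−0.41, adjusted p = 9.8e-05). The KMT2D change was −0.19 without inhibitor replicate 4 (adjusted p = 0.147) and −0.17 with GC offsets (adjusted p = 0.387). SETD1B had 79.3, 125, 115 and 105 CPM in inhibitor libraries, against 121, 124, 124 and 117 CPM in control libraries. Inhibitor replicate 2 was above all controls and the other 3 were below them. KMT2B had 60.7, 96.6, 83.1 and 82.2 CPM in inhibitor libraries, against 81.8, 91.2, 93.3 and 96.9 CPM in control libraries. Its inhibitor replicate 1 was below all controls and the others lay within their range. Neither was called. SETD1B was called lower without inhibitor replicate 2 (−0.30, adjusted p = 0.0038), as was KMT2B (−0.28, adjusted p = 0.00792). Without inhibitor replicate 1 neither was called (−0.10, adjusted p = 0.175 for SETD1B, and −0.07, adjusted p = 0.405 for KMT2B). With GC offsets the SETD1B change was −0.03 (adjusted p = 0.788) and the KMT2B change −0.01 (adjusted p = 0.902). KMT2A, the gene rearranged in leukaemias, averaged 100 ± 10.8 CPM in inhibitor libraries and 105 ± 6.81 CPM in control libraries. KMT2C averaged 120 ± 13.5 CPM in inhibitor libraries and 119 ± 10.8 CPM in control libraries. Neither was called (−0.06 ± 0.07 and 0.00 ± 0.08), and KMT2C has annotated pseudogene copies with which reads can be shared.

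Writers of H3K9 methylation were mixed, with 1 of 6 higher and 2 lower, against 29.8% higher and 28.3% lower of all tested genes. SUV39H2 (ENSG00000152455; chromosome 10, 14878820 to 14904315, plus strand), which trimethylates H3K9 in heterochromatin, had 21.4, 18.3, 21.1 and 19.8 CPM in inhibitor libraries, against 32.3, 31.1, 32.2 and 27.1 CPM in control libraries. The groups were separate and the gene fell by 0.61 on the log2 scale (SE 0.09, adjusted p = 1.15e-06), the largest fall of any member. Its X-linked paralog SUV39H1 was low, at 7.16, 7.35, 6.01 and 6.48 CPM in inhibitor libraries and 5.86, 8.38, 5.73 and 7.55 CPM in control libraries. These values overlapped throughout (−0.02 ± 0.14, adjusted p = 0.913). The opposite-strand gene DCLRE1C shares 4.46% of SUV39H2 exon bases, and an unnamed opposite-strand gene shares 21.2% of those of SUV39H1. EHMT2, which encodes the euchromatic H3K9 dimethyltransferase G9a, had 98.4, 104, 101 and 101 CPM in inhibitor libraries and 125, 127, 120 and 124 CPM in control libraries. It was lower in every inhibitor library (−0.29 ± 0.06, adjusted p = 8.5e-05; −0.18 with GC offsets and −0.19 with total counts, both called), and the antisense gene EHMT2-AS1 shares 8.11% of its exon bases. Its partner EHMT1, or GLP, averaged 105 ± 4.58 CPM in inhibitor libraries and 112 ± 7.74 CPM in control libraries and was not called (−0.09 ± 0.06). SETDB1, the H3K9 trimethylase recruited by TRIM28, was not called (−0.14 ± 0.07, adjusted p = 0.117) but was lower with GC offsets (−0.18, adjusted p = 0.0205). The opposite-strand gene CERS2 shares 12.8% of SETDB1 exon bases. SETDB2 had 26.6, 23.9, 28.4 and 21.2 CPM in inhibitor libraries and 22.0, 20.1, 19.2 and 22.3 CPM in control libraries. The overlapping values gave 0.26 ± 0.09 (adjusted p = 0.0219), a call that ended with GC offsets (adjusted p = 0.144). It also ended when control replicate 2 (adjusted p = 0.0626), control replicate 3 (0.0818), inhibitor replicate 1 (0.0768) or inhibitor replicate 3 (0.115) was left out.

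The H3K36 writers also split. NSD2 (ENSG00000109685; chromosome 4, 1871393 to 1982207, plus strand), an H3K36 dimethylase known for its translocation in myeloma, had 249, 249, 269 and 248 CPM in inhibitor libraries, against 347, 345, 308 and 329 CPM in control libraries. The groups were well apart (−0.39 ± 0.06, adjusted p = 1.65e-06). Its paralog NSD3 moved the other way, with 137, 122, 150 and 121 CPM in inhibitor libraries and 117, 115, 108 and 112 CPM in control libraries (0.23 ± 0.07, adjusted p = 0.00491). With GC offsets the NSD3 change was 0.14 (adjusted p = 0.0268). The opposite-strand gene DDHD2 shares 3.57% of NSD3 exon bases. NSD1 (115 ± 11.9 CPM in inhibitor and 112 ± 5.30 CPM in control libraries) and SETD2, the H3K36 trimethylase that travels with elongating RNA polymerase (86.4 ± 4.84 CPM in inhibitor and 87.3 ± 6.33 CPM in control libraries), were not called (0.04 ± 0.07 and −0.01 ± 0.07).

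DOT1L (ENSG00000104885; chromosome 19, 2163933 to 2232578, plus strand), the H3K79 methyltransferase, had 84.1, 104, 100 and 92.4 CPM in inhibitor libraries and 125.5, 123.5, 146.5 and 142.4 CPM in control libraries. All inhibitor values were below all controls (−0.50 ± 0.07, adjusted p = 2.03e-06). The DOT1L change was −0.33 with GC offsets (adjusted p = 3.3e-06) and −0.39 with total counts (adjusted p = 0.000167). The opposite-strand gene PLEKHJ1 shares 4.6% of DOT1L exon bases.

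The H4K20 writers each behaved differently. KMT5A, the cell cycle regulated monomethylase, had 107, 116, 107 and 118 CPM in inhibitor libraries and 110, 111, 115 and 111 CPM in control libraries. The groups overlapped fully (0.00 ± 0.06, adjusted p = 0.976), and processed pseudogenes of KMT5A exist. Of the enzymes that add further methyl groups, KMT5B averaged 86.6 ± 1.84 CPM in inhibitor libraries and 72.8 ± 3.19 CPM in control libraries (0.25 ± 0.06, adjusted p = 0.001), and its change with GC offsets was 0.14 (adjusted p = 0.015). KMT5C had 33.5, 45.1, 42.1 and 42.8 CPM in inhibitor libraries and 46.8, 50.8, 53.3 and 55.02 CPM in control libraries. It was lower in each inhibitor library (−0.33 ± 0.08, adjusted p = 0.00152), and its change with GC offsets was −0.13 (adjusted p = 0.0835).

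Among the remaining SET-domain members, KMT2E, a chromatin reader of the KMT2 family with no proven methyltransferase activity, averaged 93.6 ± 6.50 CPM in inhibitor libraries and 78.1 ± 7.39 CPM in control libraries (0.26 ± 0.07, adjusted p = 0.00283). With GC offsets the KMT2E change was 0.17 (adjusted p = 0.0107). SETD3, which methylates a histidine of actin, had 61.8, 54.2, 58.0 and 59.4 CPM in inhibitor libraries and 69.2, 67.9, 67.4 and 68.2 CPM in control libraries. It was lower in every inhibitor library (−0.23 ± 0.06, adjusted p = 0.00385). SETD6, known for methylating the NF-kappaB subunit RelA, had 28.0, 32.2, 31.1 and 29.0 CPM in inhibitor libraries and 32.8, 34.4, 36.7 and 41.0 CPM in control libraries (−0.27 ± 0.08, adjusted p = 0.00726). The groups just missed each other, CNOT1 on the opposite strand shares 17.5% of SETD6 exon bases, and both the SETD3 and the SETD6 call ended with total counts (adjusted p = 0.0919 and 0.108). SETD4 (0.09 ± 0.09), SETD5 (−0.09 ± 0.07) and SETD9 (−0.08 ± 0.11) were not called. SETD5 was called lower without inhibitor replicate 3 (−0.16, adjusted p = 0.0391) and with GC offsets (−0.14, adjusted p = 0.0331).

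Writers were set against erasers within each library as the difference of their mean log2(CPM + 1). Only its shift between groups can be read, because levels of different genes are not comparable without length. The difference was −0.47, −0.59, −0.60 and −0.54 in inhibitor libraries, against −0.94, −0.93, −0.98 and −0.92 in control libraries. The inhibitor libraries were all higher, with a shift of 0.39. The eraser mean was 0.26 higher in inhibitor libraries and the writer mean 0.14 lower. For H3K9 the shift was 0.52 (0.16 ± 0.01 in inhibitor and −0.36 ± 0.05 in control libraries, SD, n = 4 each). For H3K4 it was 0.64 (−0.03 ± 0.18 in inhibitor and −0.67 ± 0.03 in control libraries), with inhibitor replicate 1 the highest at 0.23. These scores were not adjusted for GC content. The median transcript GC content was 57.7% in H3K4 writers and 46.4% in H3K4 erasers, and 53.0% and 47.5% for H3K9. The part of this difference in the shifts was not tested. For H3K36 the inhibitor libraries (−1.77 ± 0.11) and the control libraries (−1.90 ± 0.07) overlapped. No p is given for these scores, whose members were set together with results of these data known.

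**Figure D3:**
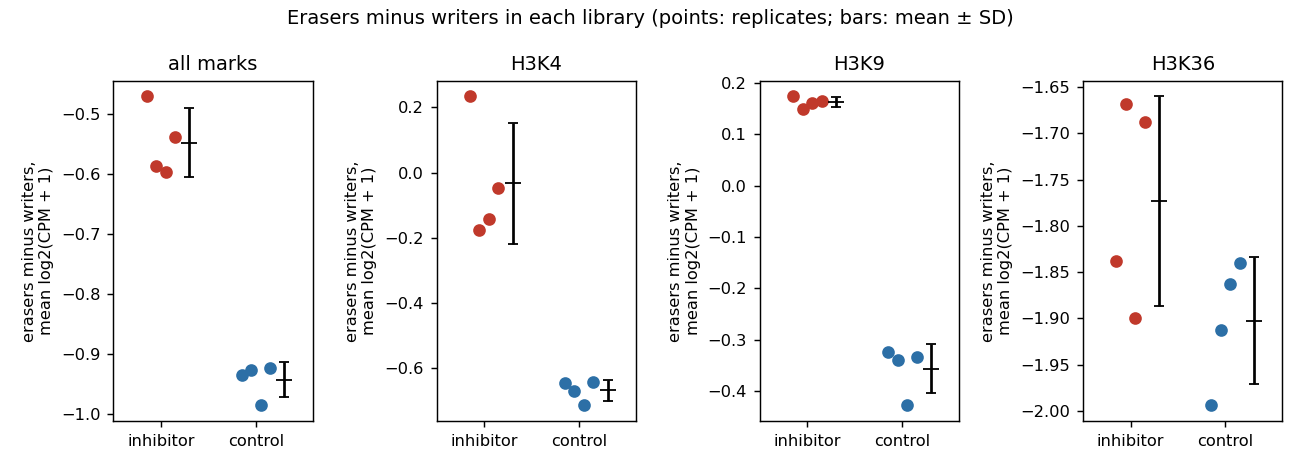
The mean log2(CPM + 1) of erasers minus that of writers is plotted for each library, inhibitor on the left and control on the right, over all marks and for the enzymes of H3K4, H3K9 and H3K36, with bars for the mean and SD. The groups are separate for all marks, H3K4 and H3K9, and overlap for H3K36.

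Within families, the ratio of paralogs shifted. The log2 ratio of KDM5B to KDM5A reads was −0.66, −0.43, −0.59 and −0.39 in inhibitor libraries, against −1.08, −1.23, −1.08 and −1.28 in control libraries. KDM5B thus came closer to KDM5A in every inhibitor library. The KDM6A to KDM6B ratio averaged −1.77 in inhibitor and −2.56 in control libraries, and the KDM2A to KDM2B ratio 1.36 in inhibitor and 0.74 in control libraries. The NSD3 to NSD2 ratio averaged −0.94 in inhibitor and −1.56 in control libraries, and the KMT5B to KMT5C ratio 1.10 in inhibitor and 0.50 in control libraries. The pairs were picked after their values were seen. Each of these 5 ratios was higher in all 4 inhibitor libraries than in any control.

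Separation of libraries was read from the same counts as the calls, so it is not a second line of support. All 4 inhibitor libraries lay above all controls for 10 of 17 erasers and below them for 2, and for writers above in 2 of 21 and below in 6. Over all tested genes the shares were 25.8% above and 25.1% below, or 51.0% together. The 6 of 21 writers below are near that share.

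The GC content of transcripts moved with these results, and its part in them was not tested beyond the offsets below. The 9 erasers that were higher had a median transcript GC content of 45.3%, and the 7 writers that were lower had 58.6%. These subsets were formed by their change. The 2 erasers that were lower had 56.8%, and the 3 writers that were higher had 43.2%. As whole classes the tested erasers had 48.6% and the writers 50.8%, against 49.5% over all tested genes. Across the 44 tested members the log2 fold change had a Spearman rho of −0.55 with GC content, and across 16360 genes −0.19. The points share the same 8 libraries, so this is a description. Exceptions stood at both ends, since SUV39H2 fell at 38.9% GC and KDM5C rose at 55.8%. Inhibitor replicate 1 had the lowest inhibitor value in 12 of the 15 members at 55% GC or more, and in 7 of the other 29. The 55% limit was set after seeing the data. With GC offsets, 10 erasers were higher and 3 lower (median 0.25), and 2 writers were higher and 7 lower (median −0.12).

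**Figure D4:**
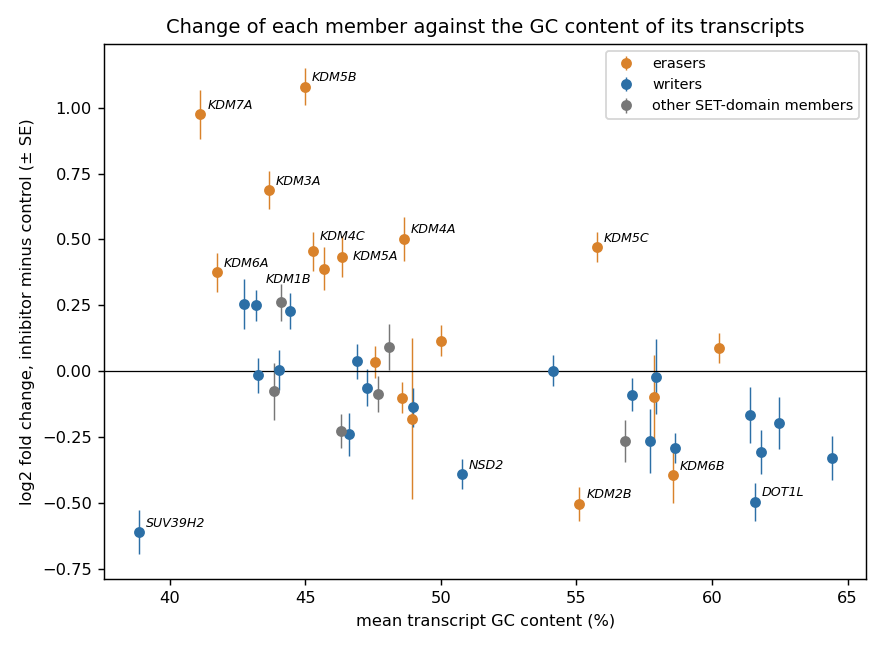
The log2 fold change of each tested member (inhibitor minus control, ± SE) is plotted against the mean GC content of its annotated transcripts in percent, with erasers, writers and other SET-domain members in separate colours. Most erasers that were higher lie under 50% GC, KDM5C at 55.8% is an exception, and SUV39H2 is the lowest point at the lowest GC content.

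Levels were compared between genes per kilobase of canonical transcript. The most abundant erasers were KDM5C, at 40.5 CPM per kb in inhibitor and 29.3 in control libraries, and KDM1A, at 29.3 in inhibitor and 31.5 in control libraries. The least abundant among tested erasers were KDM4D (0.413 in inhibitor, 0.46 in control) and KDM8 (1.54 and 1.66). Among writers KMT5A (40.3 in both groups) and NSD2 (33.5 in inhibitor, 43.9 in control) led, and SUV39H1 was lowest (2.47 and 2.51). In inhibitor libraries KDM5C stood above KDM1A, whereas KDM1A was slightly above KDM5C in controls. KDM5B reached 8.07 CPM per kb in inhibitor libraries and 3.82 in controls, which left it under KDM5A (10.1 and 7.45). KDM7A, at 6.14 CPM per kb in inhibitor libraries and 3.12 in controls, was the lowest eraser above KDM8 in controls. Among SET-domain proteins outside the writers, SETD3 was highest (20.4 in inhibitor, 23.9 in control). SETD6 was lowest in inhibitor libraries (4.81, against 5.79 in control) and SETD4 in control libraries (5.74 in inhibitor, 5.40 in control).

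**Figure D5:**
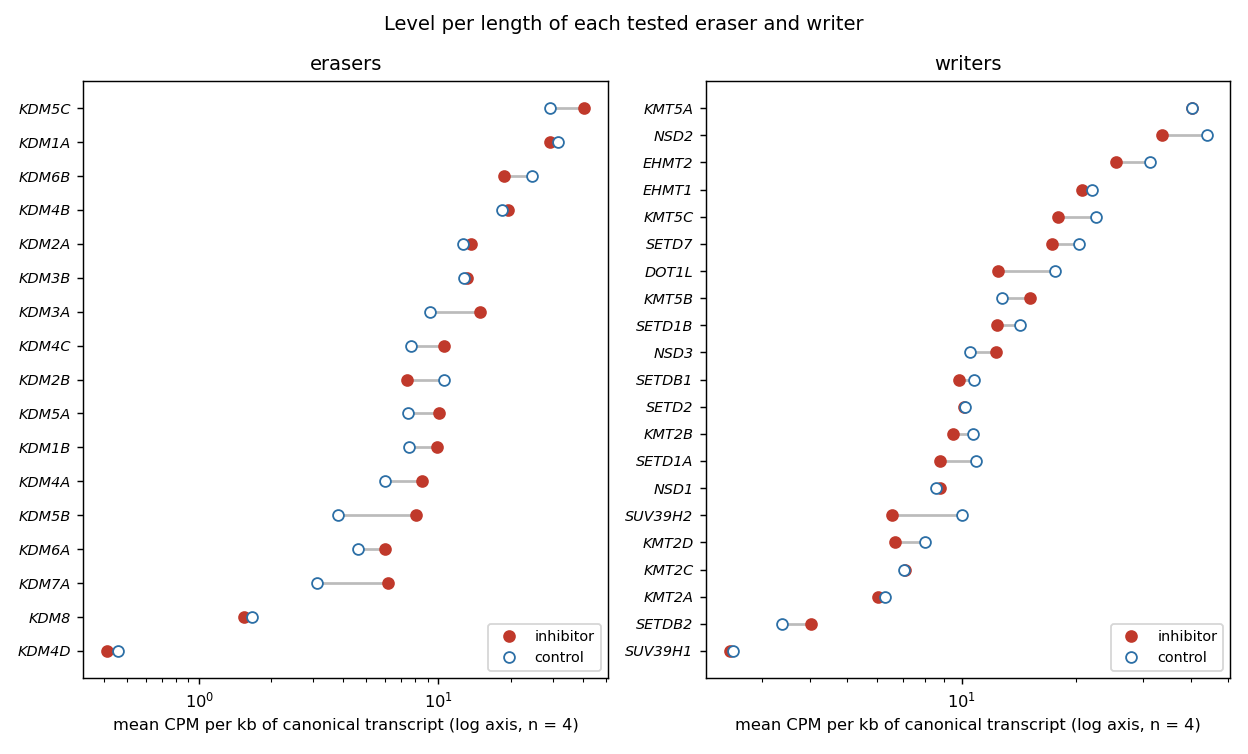
The mean level of each tested eraser and writer is plotted in CPM per kb of canonical transcript on a log axis, with filled symbols for inhibitor and open symbols for control libraries (n = 4 each). KDM5C and KMT5A are highest in inhibitor libraries and NSD2 in control libraries, and KDM5B and KDM7A show the widest gaps between groups.

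Genes outside the name rule that work with these enzymes were read from 7 lists. Their counts stand beside the 29.8% higher and 28.3% lower of all tested genes. Of 13 other JmjC genes tested 4 were higher and 4 lower, shares close to those of all genes. JARID2, a Polycomb partner without demethylase activity, had 35.95, 38.0, 34.3 and 33.5 CPM in inhibitor libraries, against 22.3, 18.7, 17.3 and 20.4 CPM in control libraries (0.85 ± 0.09, adjusted p = 6.25e-09). JMJD1C, a relative of KDM3A, rose by 0.65 ± 0.08 and HIF1AN, the asparagine hydroxylase of HIF, by 0.38 ± 0.07. JMJD6 (−0.57 ± 0.08), RIOX2 (−0.45 ± 0.09) and the H3K9 demethylase PHF8 (−0.37 ± 0.07) fell. Of 13 tested genes listed for LSD1, CoREST and related proteins 5 were higher and 5 lower. ZNF217 rose by 0.63 ± 0.08 and RCOR1 by 0.26 ± 0.07, while RCOR2 (−0.72 ± 0.10), MTA2 (−0.59 ± 0.06) and MTA1 (−0.35 ± 0.07) fell.

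Of 15 COMPASS subunits, the partners of KMT2 and SETD1 enzymes, 2 were higher and 6 lower (median −0.05), but 5 higher and 3 lower with total counts (median 0.06). WDR5, the core scaffold, had 80.1, 93.4, 86.5 and 88.6 CPM in inhibitor libraries, against 123, 128.5, 128.8 and 125.6 CPM in control libraries (−0.53 ± 0.06, adjusted p = 3.9e-08). PAXIP1 (−0.51 ± 0.07) and HCFC1 (−0.50 ± 0.08) also fell, and HCFC2 (0.77 ± 0.08) and ASH2L (0.18 ± 0.06) rose. Of 15 tested genes for other methyltransferases 3 were higher and 6 lower, or 6 and 5 with total counts. SMYD5 (−0.78 ± 0.07), PRDM15 (−0.65 ± 0.09) and SETMAR (−0.61 ± 0.10) fell, and N6AMT1 (0.29 ± 0.10) and PRDM4 (0.16 ± 0.07) rose.

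Of 15 genes of H3K9 readers and silencing complexes 5 were higher and 7 lower. UHRF1, which reads methylated H3K9 and guides maintenance DNA methylation, had 40.3, 36.4, 41.0 and 35.0 CPM in inhibitor libraries, against 102, 98.8, 103 and 101 CPM in control libraries (−1.41 ± 0.07, adjusted p = 3.89e-15). CBX5, which encodes heterochromatin protein HP1-alpha, changed by −0.65 ± 0.07, and MORC2, an effector of the HUSH silencing complex, by −0.66 ± 0.07. ATF7IP, the stabilising partner of SETDB1, rose by 0.85 ± 0.08, L3MBTL1 by 0.63 ± 0.09 and ZNF644, a partner of EHMT2, by 0.33 ± 0.08. Of 12 DOT1L partners and elongation factors 6 were higher and 4 lower. MLLT3, also known as AF9, had 71.1, 58.4, 62.3 and 63.3 CPM in inhibitor libraries and 29.8, 30.8, 31.1 and 31.1 CPM in control libraries (1.05 ± 0.07, adjusted p = 6.99e-12). AFF4 (0.68 ± 0.08) and AFF1 (0.44 ± 0.08) rose, and ELL2 (−0.98 ± 0.06), MLLT6 (−0.49 ± 0.06) and MLLT1 (−0.34 ± 0.07) fell.

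Genes that make or consume the methyl donor and 2-oxoglutarate were mostly lower, with 3 of 24 higher and 15 lower (median −0.21), and 3 and 11 with total counts. IDH3B (−0.55 ± 0.07) and IDH2 (−0.43 ± 0.06), isocitrate dehydrogenases of mitochondria, and MTRR, the methionine synthase reductase gene (−0.60 ± 0.09), fell. AHCYL2 (0.70 ± 0.08), the cytosolic isocitrate dehydrogenase gene IDH1 (0.21 ± 0.06) and MAT2B, the regulatory subunit of methionine adenosyltransferase (0.16 ± 0.06), rose. The highest adjusted p among the partner genes named as called was 0.0482, for PRDM4. MARK3, the labelled target of the compound, was at 90.4 ± 2.28 CPM in inhibitor libraries and 77.8 ± 2.30 CPM in control libraries (0.22 ± 0.06, adjusted p = 0.00287). This is its mRNA and not its kinase activity.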

How the data were processed

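RNA of 8 libraries of 22Rv1 cells was sequenced. The authors deposited raw counts, 1 whole number for each Ensembl gene. The genome hg38, featureCounts and DESeq2 are named in the submitters' processing notes. No aligner, annotation, version or strandedness was found in the labels used here. Each file listed 58735 genes, and 0 lines named no gene. Symbols, lengths and GC content came from GENCODE 44, which held 58207 of the identifiers, and promoter sequences from RefSeq (GRCh38.p14). Groups came from the sample titles.

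The fit across all genes used edgeR 4.0.16 (R 4.3.3) (filterByExpr, TMM, robust glmQLFit and glmQLFTest, group alone, Benjamini-Hochberg over all tested genes). The standard error is the absolute log2 fold change divided by the square root of F. CPM are on the TMM scale, except sums over marker lists. Biological variation between libraries (edgeR's common BCV) came to 7.2%. The procedure was checked on simulated counts. Libraries of 1 group differed by more than sampling noise (chi-square per degree of freedom 1.71 to 9.80, against 34.8 to 48.3 between groups). Controls fell into pairs, with 1.73 between replicates 1 and 2 and 1.71 between replicates 3 and 4. Between these pairs the values were 3.42 to 4.60. The cause was not tested, and the fit treated the 4 controls as independent, so standard errors and p-values may be too small. Intervals of counts cover counting error only.

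The members and lists were chosen with earlier results of these data known. Values per library were given for called members with a log2 change of at least 0.5 and a mean of at least 1 CPM, and for the highest and lowest level per length in each class. From each partner list up to 3 called genes per direction with the smallest p and a mean of at least 5 CPM were named. A gene that this rule selects is not reported here. Values per library of other genes, and NSD2 among the promoters, were chosen after their values were seen. The alternatives changed the scaling (RLE, total counts, upper quartile), the filter (none, or 1 CPM in at least 4 libraries), the test (limma-voom with limma 3.58.1, DESeq2 1.42.0, no robust dispersion) or the threshold (0.01). Others added a replicate block or GC offsets, thinned all libraries to the lowest total, or dropped 1 library at a time.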

Additional observations from a re-analysis of the deposited data

Results flagged for a closer look

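Among 88 groups of 4 libraries (44 members in inhibitor and control), 5 held a library that stood apart from the other 3 by Dixon's 95% criterion (gap to the nearest value over the range). About 1 in 20 groups is expected by chance. EHMT1 was 124 CPM in control replicate 4, against 107 to 110 CPM in the other controls. KDM2A was 94.8 CPM in inhibitor replicate 1, against 103 to 104 CPM in the other inhibitor libraries. KDM4C was 29.4 CPM in control replicate 3, against 34.1 to 34.9 CPM in the other controls. KDM6A was 30.6 CPM in control replicate 2, against 27.2 to 27.4 CPM. NSD2 was 269 CPM in inhibitor replicate 3, against 248 to 249 CPM in the other inhibitor libraries.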

How the results depend on the processing

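Of 24 called members, 17 kept direction and call in all 20 alternatives, and of 20 uncalled ones 11 stayed uncalled. Total counts moved the median log2 fold change of all tested genes to 0.125, against 0.021 with TMM, and gave 6 members called lower and 1 of the erasers called lower. The median log2 fold change of writers was then −0.032 and the median log2 fold change of erasers 0.48; the cause was not tested. With GC offsets the median log2 fold change of erasers was 0.252 and erasers minus writers, medians, came to 0.369, against 0.512 without them. Leaving out 1 library at a time gave 0.325 (without control replicate 3) to 0.416 (without control replicate 2) for erasers and 0.429 (without inhibitor replicate 1) to 0.583 (without control replicate 2) for the difference. Replicate numbers did not pair the samples (correlations of deviations −0.088 to 0.131), and only samples numbered 1 correlated best with their own number. With the replicate block 13 members were higher and 14 lower, 10 of them writers, against 13, 11 and 7; KMT2B, KMT2D and SETD1B were the added writers. The unfiltered fit also gave 13 higher and 14 lower. Some uncalled members near 0 changed sign while staying uncalled. With total counts these were EHMT1 (0.016), KDM1A (0.005), KDM8 (0.006), KMT2A (0.044), SETD2 (0.090), SETD5 (0.020), SETD9 (0.028) and SUV39H1 (0.083). With GC offsets they were KDM3B (−0.025), KMT2C (−0.087), NSD1 (−0.029) and SUV39H1 (0.078). KMT2C was −0.009 with RLE, −0.005 unfiltered, −0.009 with DESeq2 and −0.006 thinned. KMT5A was −0.011 with RLE, −0.006 unfiltered and −0.010 with DESeq2. With upper-quartile scaling SETD2 was 0.016 and SUV39H1 0.011. Leaving out 1 library gave ranges of −0.382 to 0.176 for KDM4D, −0.070 to 0.067 for KMT2C, −0.024 to 0.013 for KMT5A, −0.039 to 0.093 for NSD1, −0.061 to 0.016 for SETD2 and −0.102 to 0.084 for SUV39H1. In simulated counts (16448 genes, few of them changed), 98% of genes lowered 1.5-fold were called and 52% of those raised by the smallest simulated fold. Each fold was simulated in a single direction. In the data most tested genes were called, which sets a different cut-off for the adjusted p. These percentages therefore do not give the share of changes missed here, though small changes can be missed. Low counts limit KDM4D, KDM4E and KDM4F most.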
